A study of Mus musculus with 33 samples.

Results

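The genes described here are *Gpd1* and 9 other enzymes of glycerol-phosphate lipid synthesis, namely *Gpd1l*, *Gpd2*, *Gpam*, *Agpat3*, *Agpat4*, *Lpin1*, *Lpin2*, *Dgat1* and *Dgat2*. They were taken by symbol, 10 of the 24421 genes in the count files. *Gpd1* was picked for its loss in CD11b+ alveolar macrophages (AMs), so its values there, and those of the other 9 genes in the same contrasts, are given as a description without a test. All 10 genes, and the further gene lists used below, were chosen with earlier results of these data known. Their p-values are therefore not fully independent of that choice. Bulk RNA-seq had been performed on 33 samples of 25000 sorted cells from C57Bl/6 mice of 6 to 8 weeks of age. It was done to ask what the loss of the transcription factor ZEB2 does to tissue macrophages. The study states that both sexes were used in its experiments. In these samples *Ddx3y*, a gene of the Y chromosome, was detected in 6 of the 18 from liver and in 0 of the 15 from lung. Kupffer cells (KCs), the macrophages of the liver sinusoids, came as CRE- KCs from *Zeb2*fl/fl littermates and as Tim4+ KCs and Tim4- KCs, both isolated from mice with *Clec4f-cre* and floxed *Zeb2* (*Clec4f-cre*x*Zeb2*fl/fl), with 6 samples in each group. AMs, the macrophages of the air spaces of the lung, came as CRE- AMs from *Zeb2*fl/fl littermates and as CD11b- AMs and CD11b+ AMs, both isolated from mice with *Itgax-cre* and floxed *Zeb2* (*Itgax-cre*x*Zeb2*fl/fl), with 5 samples in each group. All 6 groups carry the floxed allele and received no other treatment. *Clec4f-cre* is restricted to KCs apart from a minor activity in B cells, whereas *Itgax-cre* also acts in other cells that express CD11c, and the study describes cells that kept 1 *Zeb2* copy in both kinds of CRE+ mice, so the CRE+ groups can be mixtures.

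Glycerol 3-phosphate is the backbone of triglycerides and of most membrane phospholipids. Cytosolic glycerol-3-phosphate dehydrogenase makes it from the glycolytic intermediate dihydroxyacetone phosphate and regenerates NAD+ in the same step; with the mitochondrial dehydrogenase it also forms a shuttle that passes the electrons of cytosolic NADH to the respiratory chain. Acyltransferases then add fatty acids, a phosphatase removes the phosphate, and the diacylglycerol formed is either acylated to triglyceride or given a head group to become a phospholipid. AMs are known for taking up and breaking down surfactant, which is rich in phospholipid.

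*Gpd1* and *Gpd1l* encode the 2 cytosolic dehydrogenases, and the difference between them is central to the results, so the start of their coding sequences is shown first. *Gpd1* lies on chromosome 15 of GRCm38 from 99717515 to 99725005 on the plus strand, and *Gpd1l* on chromosome 9 from 114899341 to 114933987 on the minus strand. The first 120 coding bases of *Gpd1* and the first 126 of *Gpd1l* follow, from GENCODE M21 transcripts, with the bases that differ or have no partner in the other gene in capitals:
Gpd1: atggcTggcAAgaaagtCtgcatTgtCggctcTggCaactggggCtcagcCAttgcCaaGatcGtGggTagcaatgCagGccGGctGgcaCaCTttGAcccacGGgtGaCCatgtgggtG
Gpd1l: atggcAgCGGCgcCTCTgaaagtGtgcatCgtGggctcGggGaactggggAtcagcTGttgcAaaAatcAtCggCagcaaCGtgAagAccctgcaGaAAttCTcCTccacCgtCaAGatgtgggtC
Over 1043 aligned coding bases the genes were 73.6% identical, and the longest stretch that any of their transcripts shared was 20 bases. *Agpat3* and *Agpat4* were 67.4% identical with a longest shared stretch of 18 bases, and *Lpin1* and *Lpin2* 65.4% with 19. Reads under 35 bases had been discarded before mapping, so no read kept by the authors would fit both genes of a pair without a mismatch. *Gpd1* shares 384 exonic bases with the antisense gene Gm16537, *Gpd2* shares 487 with A930012O16Rik on the opposite strand, and *Agpat3* shares 16 with Gm40709. These 3 genes are not in the files' gene list, and without a stated strand setting reads from either strand could have been counted on the listed gene.

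The files held 9837240 to 24332306 reads on genes in each sample. The summed level of 7 KC markers was at least 9554 CPM in every KC sample and at most 138 CPM in AM samples, and that of 7 AM markers was at least 19943 CPM in every AM sample and at most 595 CPM in KC samples. *Chil3* made up most of the AM sum, and single AM markers did not all separate the tissues: *Siglecf* was higher in Tim4- KCs (254 to 424 CPM) than in CD11b+ AMs (172 to 210 CPM), and *Fabp1* in CD11b+ AMs (17.8 to 22.6 CPM) lay within its range in KCs. *Zeb2* itself ranged from 240 to 342 CPM in CRE- KCs, from 150 to 218 CPM in Tim4+ KCs and from 149 to 196 CPM in Tim4- KCs. In the lung it ranged from 174 to 211 CPM in CRE- AMs, from 85.7 to 115 CPM in CD11b- AMs and from 44.1 to 62.1 CPM in CD11b+ AMs. These counts cover the whole gene, of which Cre removes only a part. CPM are counts scaled to the library's total on genes, in the usual per-megaread unit, and RPKM, used only to compare genes with each other, are CPM per kilobase of exon. Log2 fold changes come from edgeR's quasi-likelihood test with its own normalization, with p-values adjusted by Benjamini-Hochberg over all genes tested. A gene was called higher or lower where the adjusted p was below 0.05 and the log2 fold change was beyond 1 or -1.

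*Gpd1* had its highest level in CRE- AMs, was lower in CD11b- AMs and was nearly absent from the counts of CD11b+ AMs. It had 43.2, 49.7, 61.3, 64.2 and 72.2 CPM in the 5 CRE- AM samples, a mean of 58.1 ± 11.6 CPM (SD, n = 5). CD11b- AMs had 4.05, 5.48, 9.94, 9.96 and 10.5 CPM, a mean of 7.99 ± 3.0 CPM (SD, n = 5), which is 13.8% of the control mean. Every CD11b- AM sample lay below every CRE- AM sample. The log2 fold change between these groups was -2.85 (SE 0.27, adjusted p = 1.65e-07 from edgeR), and it lay between -2.97 and -2.68 when each sample of the 2 groups was left out in turn. These CRE- AM samples are the same ones that entered the contrast for which *Gpd1* was picked. The p-value is therefore not independent of that choice, and the values are best read as a description. In a bulk sample, fewer cells that express a gene and less RNA per cell cannot be told apart.

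In CD11b+ AMs *Gpd1* was at or near the limit of detection. Of the 5 samples, 3 had no count, 1 had 1 count (0.0472 CPM) and replicate 2 had 6 counts (0.277 CPM), where 3 counts correspond to 0.138 to 0.162 CPM in these libraries. The group held 7 *Gpd1* counts among 102447313 reads, or 0.0683 CPM (exact Poisson 95% interval 0.0275 to 0.141), against 5962 among 103037751 reads in CRE- AMs. The level over the whole CRE- AM group was therefore 847 times that in CD11b+ AMs, with an exact 95% interval from 411 to 2107 that covers counting error only. The fitted log2 fold change, -9.44, was the lowest of the 11573 genes tested. *Gpd1* was picked for its loss in this contrast, so the rank follows from that choice and is no separate result. The fitted value rests on the 7 counts, and without CD11b+ AM replicate 2, which held 6 of them, it was -11.47. Against CD11b- AMs the fitted value was -6.60, and -8.63 without that sample.

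*Gpd1l*, which encodes the second cytosolic dehydrogenase, was called in none of the tested comparisons. Its means ran from 71.1 ± 8.9 CPM (SD, n = 6) in CRE- KCs to 97.4 ± 3.1 CPM (SD, n = 5) in CD11b- AMs, and each group overlapped the next in this order. Its log2 fold change in CD11b- AMs was 0.19 (SE 0.088, adjusted p = 0.117 from edgeR), and in CD11b+ AMs the fitted difference from the controls was 0.20. Per length, *Gpd1* and *Gpd1l* were at similar levels in CRE- AMs, with 19.6 ± 3.9 and 16.9 ± 2.2 RPKM (SD, n = 5), and their ratio ran from 0.750 to 1.59 over the 5 samples. In CD11b- AMs the ratio was between 0.0687 and 0.189, and in CD11b+ AMs *Gpd1l* remained at 17.1 ± 1.9 RPKM (SD, n = 5) while the ratio was at most 0.00577. In KCs the median ratio of the 3 groups was between 0.0657 and 0.0860 and the highest ratio of any sample was 0.276.

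*Gpd2* encodes the mitochondrial dehydrogenase that completes the shuttle. It had 61.2 to 72.4 CPM in CRE- AMs and 74.2 to 92.2 CPM in CD11b- AMs, so the groups did not overlap, and rose by 0.36 on the log2 scale (SE 0.092, adjusted p = 0.00631 from edgeR), short of the fold required for a call. CD11b+ AMs had 50.9 to 73.0 CPM, with a fitted difference of -0.02 from the controls. In KCs *Gpd2* was lower in both CRE+ groups. Its level was 38.5 to 66.7 CPM in CRE- KCs, 31.1 to 43.6 CPM in Tim4+ KCs and 31.0 to 45.4 CPM in Tim4- KCs, ranges that overlap. The log2 fold changes were -0.51 (SE 0.13, adjusted p = 0.0237) and -0.44 (SE 0.13, adjusted p = 0.0187 from edgeR), again below the fold required. The change in KCs, as the mean of both CRE+ groups, differed from that in CD11b- AMs by -0.85 on the log2 scale (SE 0.16, adjusted p = 0.000463 from edgeR's interaction term).

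**Figure D1:**
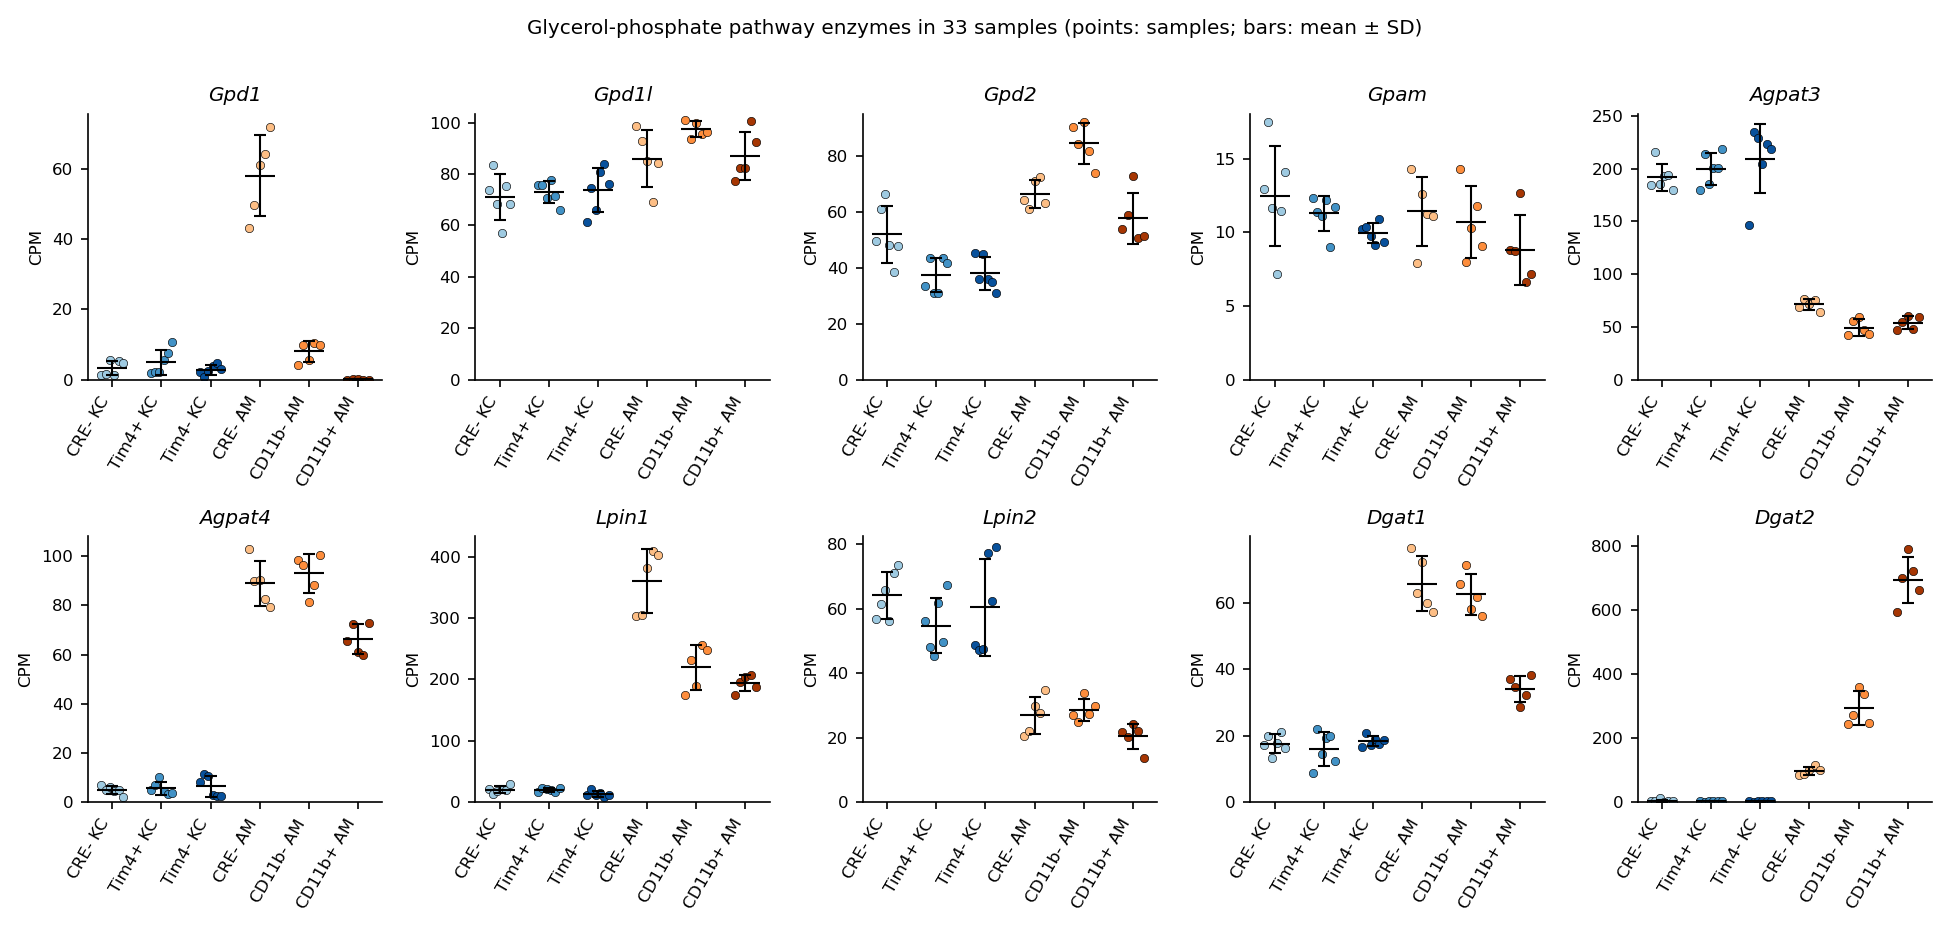
Level of each of the 10 enzyme genes in CPM (vertical axis, linear, separate for each gene) in the 6 groups; points are single samples, horizontal bars are means and whiskers are SD (n = 6 for KC groups and 5 for AM groups). *Gpd1* steps down from 58.1 to 7.99 to 0.0648 CPM across the AM groups while *Dgat2* steps up from 97.4 to 293 to 694 CPM, and *Gpd1l* and *Gpam* stay within a narrow range in all groups.

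None of the 3 acyltransferases that load the backbone was called within a tissue. *Gpam*, which encodes the mitochondrial enzyme for the first acylation, was low throughout, with group means from 8.80 CPM in CD11b+ AMs to 12.5 CPM in CRE- KCs, and all 6 groups overlapped in order of their means. *Agpat3*, one of the enzymes for the second acylation, had 64.3 to 76.4 CPM in CRE- AMs and 42.2 to 59.2 CPM in CD11b- AMs, without overlap. It fell by 0.52 on the log2 scale (SE 0.10, adjusted p = 0.000870 from edgeR), below the fold required. In KCs it had between 147 and 235 CPM, and the change there was higher than in CD11b- AMs by 0.59 (SE 0.13, adjusted p = 0.00306 from edgeR's interaction term).

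*Agpat4*, a further member of the acylglycerolphosphate acyltransferase family, had 79.2 to 103 CPM in CRE- AMs and 81.6 to 101 CPM in CD11b- AMs, with a change of 0.08 in log2 units (SE 0.085, adjusted p = 0.557 from edgeR). CD11b+ AMs had 59.9 to 72.7 CPM, below every sample of both other AM groups, but the fitted difference from the controls was only -0.24. The fitted values include edgeR's scaling factors, which CPM do not; these were 0.901 to 0.938 in CD11b+ AMs and 1.02 to 1.06 in the other 10 AM samples. In Tim4- KCs *Agpat4* had 8.23, 11.6 and 10.8 CPM in replicates 1 to 3 and 2.77, 2.65 and 2.43 CPM in replicates 4 to 6, and *Lpin2* was split the other way, with 47.4 to 48.7 CPM in replicates 1 to 3 and 62.5 to 79.2 CPM in replicates 4 to 6. The labels do not say whether these sets of replicates were handled apart.

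*Lpin1* and *Lpin2* encode phosphatidate phosphatases that yield diacylglycerol. *Lpin1* had the highest per-length mean of the 10 genes in CRE- AMs, 37.3 ± 5.4 RPKM (SD, n = 5), next to 32.98 ± 3.4 RPKM for *Agpat4*, a difference smaller than the spread. It had 303, 304, 381, 402 and 410 CPM in CRE- AMs and 174, 189, 232, 248 and 257 CPM in CD11b- AMs. No sample of the second group reached the first, and the log2 fold change was -0.70 (SE 0.11, adjusted p = 0.000101 from edgeR), short of the fold required. CD11b+ AMs, at 174 to 207 CPM, had a fitted difference of -0.71 from the controls and -0.02 from CD11b- AMs. In KCs *Lpin1* was at 12.6 to 29.0 CPM in CRE- KCs, 16.2 to 23.3 CPM in Tim4+ KCs and 7.79 to 21.1 CPM in Tim4- KCs. The log2 fold change in Tim4- KCs was -0.64 (SE 0.21, adjusted p = 0.0300 from edgeR), and that in Tim4+ KCs was -0.05 (SE 0.21, adjusted p = 0.944). *Lpin2* did not pass in any CRE+ group that was tested; its log2 fold changes were between -0.27 and 0.10.

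Both diacylglycerol acyltransferases, which add the third fatty acid to make triglyceride, were present in AMs, and *Dgat2* was called higher in CD11b- AMs while *Dgat1* was not. *Dgat2* had 84.5, 86.6, 99.1, 102 and 115 CPM in CRE- AMs and 245, 248, 273, 338 and 361 CPM in CD11b- AMs. All 5 CD11b- samples were above all controls, and the log2 fold change was 1.60 (SE 0.11, adjusted p = 3.39e-09 from edgeR). *Dgat2*, like the other members, was chosen with earlier results of these data known, so this p-value is not fully independent of that choice. CD11b+ AMs had 594, 661, 701, 721 and 791 CPM, a mean 7.12 times the control mean, with a fitted log2 difference of 3.01. *Dgat1* had 57.2 to 76.5 CPM in CRE- AMs and 55.9 to 71.4 CPM in CD11b- AMs, with a change of -0.06 in log2 units (SE 0.10, adjusted p = 0.737 from edgeR). In CD11b+ AMs it had 28.5 to 38.1 CPM, below every other AM sample, and the fitted difference from the controls was -0.76. Per length, the ratio of *Dgat2* to *Dgat1* was between 1.10 and 1.91 in CRE- AMs, between 3.703 and 6.16 in CD11b- AMs and between 15.8 and 27.5 in CD11b+ AMs, so the 3 groups did not overlap.

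Of the 10 genes, 1 was called higher (*Dgat2*) and 1 lower (*Gpd1*) in CD11b- AMs, against a background of 6.5% of the 11573 genes called in either direction, 3.98% higher and 2.51% lower. A further 3 passed the adjusted p without the fold (*Gpd2*, *Agpat3* and *Lpin1*). At the adjusted p alone 5 of the 10 genes passed, beside 2972 of the 11573 genes tested. In CD11b+ AMs against CRE- AMs the same 2 genes met the rule, where the background was 15.3% (9.57% higher and 5.68% lower), and against CD11b- AMs again the same 2, where it was 10.2% (6.85% higher and 3.3% lower). The members were chosen on these samples, so nothing is read from those counts. The groups did not overlap in CPM for 5 of the 10 genes between CD11b- and CRE- AMs, where 18.8% of genes with a mean of at least 1 CPM did not. They did not overlap for 6 of 10 between CD11b+ and CRE- AMs, against 38.3% of genes, and for 6 of 10 between CD11b+ and CD11b- AMs, against 31.7%. The median log2 fold change of the 10 genes in CD11b- AMs was 0.01, beside 0.00 over all genes tested. The comparisons of CD11b- and CD11b+ AMs share their control samples.

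Markers of other cells moved with these AM groups. The summed level of 5 neutrophil genes was 2.60 to 5.29 CPM in CRE- AMs, 90.9 to 237 CPM in CD11b- AMs and 479 to 601 CPM in CD11b+ AMs. *Cxcr2* made up most of it, with mean levels of 3.33, 151 and 511 CPM, whereas the granule gene *Ngp* was at 0 in every CRE- and CD11b- AM sample and had a mean of 2.92 CPM in CD11b+ AMs. The 4 monocyte genes summed to 3.19 to 8.61 CPM, 9.82 to 23.5 CPM and 68.4 to 212 CPM in the same order, with *Vcan* at 0 in both CRE+ groups. The 4 adipocyte genes, of interest for a triglyceride pathway, summed to between 301 and 564 CPM in AMs through *Cidec*, but *Adipoq* had a mean of 0.0599 CPM in CRE- AMs and no count in the CRE+ groups, and *Adig* had no count in any AM sample. The part of such cells in the changes of *Gpd1* and *Dgat2* was not tested.

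**Figure D2:**
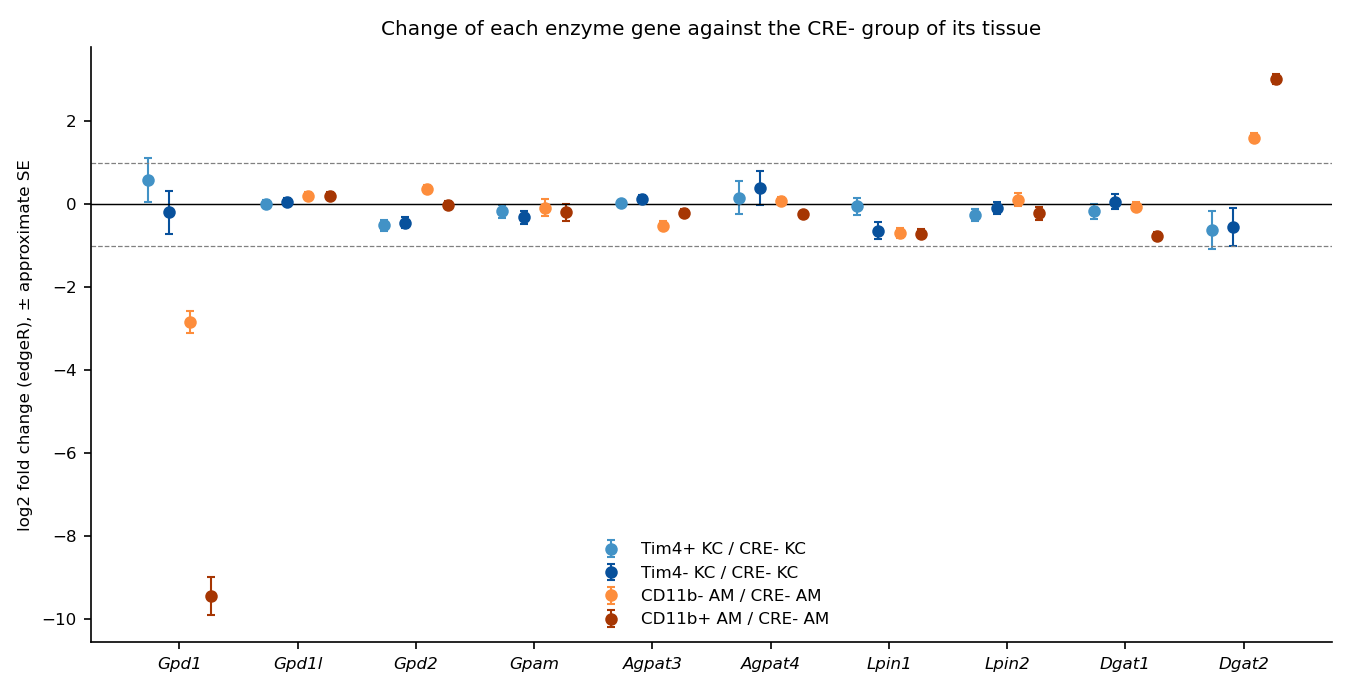
Log2 fold change of each gene (vertical axis, edgeR, with approximate SE as whiskers) in the 4 CRE+ groups against the CRE- group of their tissue; dashed lines mark a log2 fold change of 1 and -1. The points of *Gpd1* (-2.85 and -9.44) and *Dgat2* (1.60 and 3.01) in CD11b- and CD11b+ AMs are the only ones outside the dashed lines; the CD11b+ values are shown as a description.

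In KCs none of the 10 genes was called in either CRE+ group. The background was 2.31% of 12500 genes for Tim4+ KCs against CRE- KCs (1.94% higher and 0.376% lower), 8.82% for Tim4- KCs against CRE- KCs (3.43% and 5.39%) and 5.45% for Tim4- against Tim4+ KCs (0.44% and 5.01%). At an adjusted p under 0.05 without the fold, edgeR gave 1 gene (*Gpd2*), 2 (*Gpd2* and *Lpin1*) and 0 in these comparisons. Of all 12500 genes, 761, 3169 and 1433 passed at that threshold. With the fold, limma-voom and DESeq2 also called 0 of the 10 in each. For all 10 genes the groups overlapped in CPM, where 5.33%, 11.4% and 6.06% of genes with a mean of at least 1 CPM did not. The median log2 fold change of the 10 genes was -0.11 in Tim4+ KCs and -0.14 in Tim4- KCs, beside 0.00 and -0.03 over all genes tested. The comparisons of the 2 CRE+ KC groups share their control samples.

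*Gpd1* was low and variable in KCs. In order of replicate number, CRE- KCs had 1.38, 1.56, 5.52, 1.16, 5.25 and 4.58 CPM, Tim4+ KCs 1.94, 2.26, 2.09, 5.47, 7.43 and 10.7 CPM, and Tim4- KCs 2.13, 0.654, 2.42, 3.85, 4.80 and 3.03 CPM. In both CRE+ groups replicates 1 to 3 were all below replicates 4 to 6, which was not so in CRE- KCs. The labels do not say whether these replicates were handled apart, and the split was not tested. The 3 groups overlapped widely, and the log2 fold changes were 0.58 in Tim4+ KCs (SE 0.52, adjusted p = 0.644) and -0.20 in Tim4- KCs (SE 0.53, adjusted p = 0.819 from edgeR). *Ddx3y*, a gene of the Y chromosome, was detected in 6 of the 18 KC samples, which were replicates 5 and 6 of all 3 groups, and *Gpd1* had 3.03 to 10.7 CPM in these and 0.654 to 5.52 CPM in the other 12. *Ddx3y* had at most 1 count in any AM sample. Hepatocytes are known to express *Gpd1*, and their markers varied too: the summed level of 9 hepatocyte markers was 189 to 473 CPM in CRE- KCs, 142 to 433 CPM in Tim4+ KCs and 85.4 to 231 CPM in Tim4- KCs, with none of the 9 at 0 in any group. In AMs this sum was at most 0.875 CPM.

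*Dgat2* was near 3 CPM in KCs apart from a single sample. CRE- KCs had 1.21, 1.83, 2.80, 3.89, 3.998 and 11.4 CPM, and the highest value, in replicate 3, was in the KC sample with the highest hepatocyte sum, 473 CPM. Tim4+ KCs had 1.72 to 3.94 CPM and Tim4- KCs 0.828 to 4.15 CPM. The log2 fold changes were -0.62 (SE 0.45, adjusted p = 0.550) and -0.55 (SE 0.45, adjusted p = 0.408 from edgeR), and without that sample they were -0.02 and 0.06. The 10 genes were each compared with the hepatocyte sum over the 18 KC samples, on log2 scales, in a family of 10 chosen after the values were seen. *Dgat2* had Pearson's r = 0.45 (permutation p = 0.0588, adjusted p = 0.411) and Spearman's rho = 0.41 (permutation p = 0.0953, adjusted p = 0.318), and r was 0.37 without the 2 samples farthest from the median. *Gpd1* had r = 0.42 (permutation p = 0.0835, adjusted p = 0.411) and rho = 0.44 (permutation p = 0.0678, adjusted p = 0.318), with r = 0.42 without those 2 samples. No gene of the 10 passed the adjustment. Within the groups of 6, r for *Dgat2* was 0.95 in CRE- KCs (exact permutation p = 0.0167, unadjusted), 0.89 in Tim4+ KCs (0.0222) and -0.21 in Tim4- KCs (0.736). For *Gpd1* it was 0.31 (exact permutation p = 0.711, unadjusted), 0.79 (0.0944) and 0.02 (0.836). In the same order *Agpat4* had 0.64 (exact permutation p = 0.0556, unadjusted), -0.855 (0.0333) and -0.63 (0.169). *Gpd2* had 0.67 (exact permutation p = 0.158, unadjusted), 0.14 (0.828) and -0.82 (0.0389). The within-group p-values under 0.05 for r went with a positive r for *Dgat2* and a negative r for *Agpat4* and *Gpd2*. No other member had one. None of these within-group values was adjusted for the number of genes and groups. The part of hepatocyte RNA in the KC levels of *Dgat2* and *Gpd1* was not tested.

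A single fit over both tissues asked whether the mean change in the 2 CRE+ KC groups differed from the change in CD11b- AMs. It differed for *Gpd1*, by 3.03 on the log2 scale (SE 0.63, adjusted p = 0.00121 from edgeR's interaction term), and for *Dgat2*, by -2.21 (SE 0.45, adjusted p = 0.000951). These were 2 of the 10 genes, and 5.69% of 13150 genes were called for this term, 3.02% higher and 2.67% lower. Without CRE- KC replicate 3 the *Dgat2* value was -1.60 and still called. The CRE- AM samples are again shared with the contrast that chose *Gpd1*, so its p-value here is not independent of that choice. *Ddx3y* was detected in some KC samples and in no AM sample, so sex is partly confounded with tissue in this fit.

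Control macrophages of the 2 tissues differed by the rule for calls in 6 of the 9 enzymes tested. *Ddx3y* was detected in replicates 5 and 6 of CRE- KCs and in no AM sample, so tissue and sex are partly confounded here. Between CRE- KCs and CRE- AMs, 2 of the 10 genes were called higher in KCs and 5 lower, *Gpd1* included, where 33.3% of 12145 genes were called in either direction, 20.9% higher and 12.4% lower. *Agpat3* and *Lpin2* were higher in KCs, with log2 fold changes of 1.44 (SE 0.068, adjusted p = 1.51e-10) and 1.27 (SE 0.14, adjusted p = 1.81e-06 from edgeR). *Agpat4*, *Lpin1*, *Dgat1* and *Dgat2* were lower in KCs. Their log2 fold changes were -4.17 (SE 0.21, adjusted p = 3.64e-10), -4.14 (SE 0.18, adjusted p = 7.48e-11), -1.89 (SE 0.12, adjusted p = 5.31e-09) and -4.53 (SE 0.41, adjusted p = 1.92e-07 from edgeR). The *Dgat2* value was -5.13 without CRE- KC replicate 3. These 6 genes and *Gpd1* separated the samples of the 2 tissues without overlap, as did 49.3% of genes with a mean of at least 1 CPM. *Gpd1*, given as a description, had 17.9 times the mean CPM in CRE- AMs that it had in CRE- KCs, and *Gpam* had an adjusted p of 0.597 with a log2 fold change of 0.13 (SE 0.21, edgeR).

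Per length, the order within 3 of 4 enzyme pairs was reversed between the tissues. *Agpat4* was at 32.98 ± 3.4 RPKM and *Agpat3* at 9.14 ± 0.64 RPKM in CRE- AMs (SD, n = 5), whereas *Agpat4* was at 1.83 ± 0.62 RPKM and *Agpat3* at 24.7 ± 1.6 RPKM in CRE- KCs (SD, n = 6). The ratio of *Lpin1* to *Lpin2* was 14.7 to 18.8 in CRE- AMs and 0.260 to 0.497 in CRE- KCs. It was 7.07 to 11.9 in CD11b- AMs and 10.1 to 17.3 in CD11b+ AMs, and at most 0.612 in the CRE+ KC groups, so no CRE+ sample crossed to the other tissue's side of 1. The ratio of *Dgat2* to *Dgat1* was under 1 in all 18 KC samples, with a highest value of 0.850, and over 1 in all 15 AM samples. *Gpd1* against *Gpd1l* was the one pair whose order changed within a tissue, from both sides of 1 in CRE- AMs to below it in both CRE+ AM groups.

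**Figure D3:**
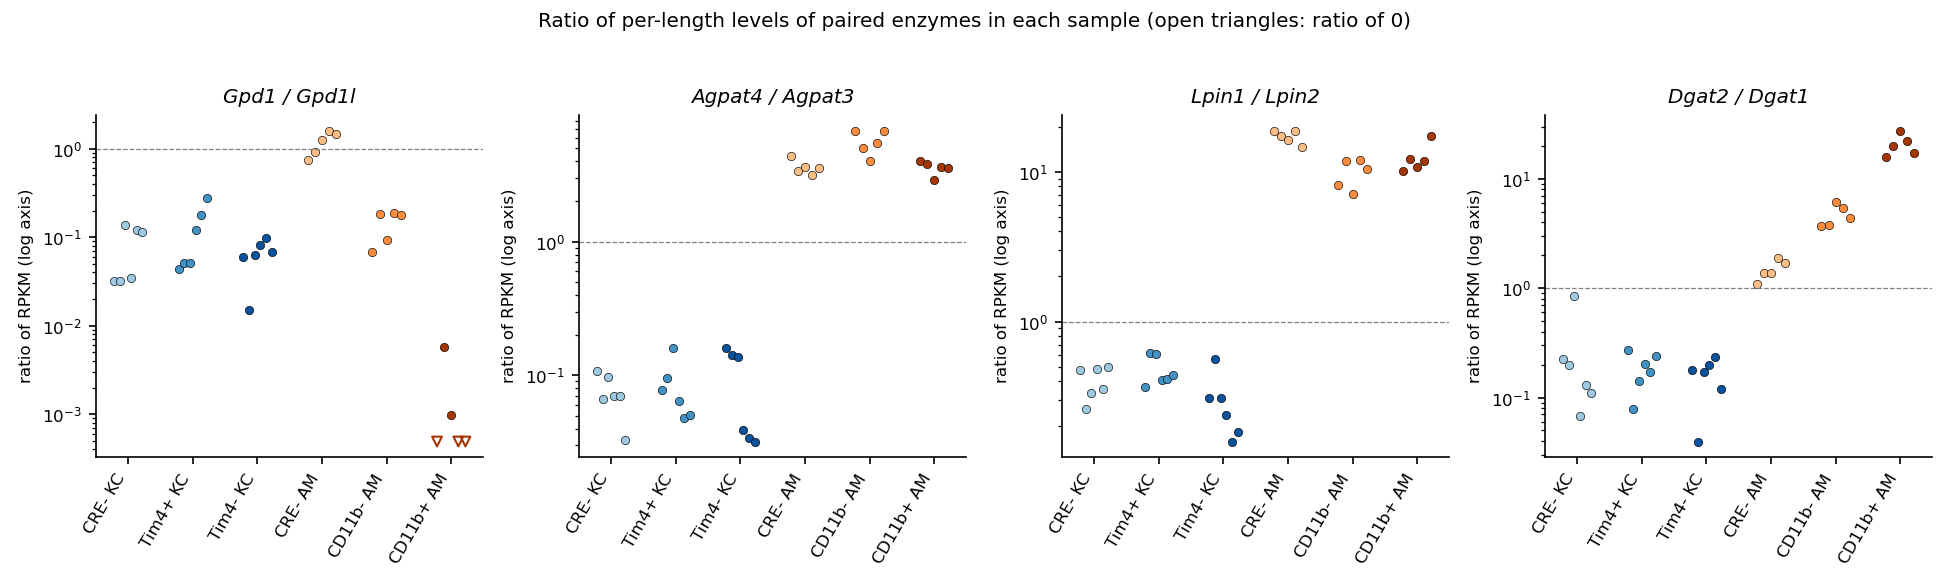
Ratio of the per-length levels (RPKM, vertical log axis) of 4 pairs of enzymes with the same reaction in each sample; the dashed line marks equal levels and open triangles mark the 3 CD11b+ AM samples with no *Gpd1* count. KC and AM samples lie on opposite sides of the dashed line for *Agpat4* to *Agpat3*, *Lpin1* to *Lpin2* and *Dgat2* to *Dgat1*, and the *Gpd1* to *Gpd1l* ratio drops from 0.750 to 1.59 in CRE- AMs to at most 0.00577 in CD11b+ AMs.

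The neighbouring steps of the pathway were followed with 57 other genes in 10 lists. These lists were also chosen with earlier results of these data known, so their p-values are not fully independent of that choice. In CD11b- AMs 6 of the 49 tested were called higher and 1 lower, with a median log2 fold change of 0.09, beside 6.5% of all genes called. The calls were spread over the lists: 2 of 3 phosphatidate phosphatases, 2 of 18 phospholipid genes (1 in each direction), and 1 each of 2 glycerol supply, 5 triglyceride breakdown and 4 acyl-CoA supply genes, with none of the 7 malate-aspartate shuttle genes, 4 regulators, 2 first-step and 4 second-step acyltransferases. The largest rise was that of *Chpt1*, which joins phosphocholine to diacylglycerol, from 31.2 to 36.7 CPM in CRE- AMs to 201 to 335 CPM in CD11b- AMs (log2 fold change 2.94, SE 0.13, adjusted p = 2.38e-12 from edgeR). *G0s2*, an inhibitor of the triglyceride lipase ATGL, rose from 16.1 to 24.7 CPM to 67.4 to 183 CPM (2.79, SE 0.21, adjusted p = 6.11e-09). *Acsl3*, an acyl-CoA synthetase of lipid droplets, rose from 1.93 to 3.63 CPM to 9.40 to 16.3 CPM (2.37, SE 0.19, adjusted p = 1.59e-08). The phosphatase *Plpp3*, listed as Ppap2b, rose by 1.84 (SE 0.20, adjusted p = 1.09e-06), and *Aqp9*, a channel for glycerol, by 1.499 (SE 0.26, adjusted p = 0.000219 from edgeR). The sixth was *Plpp2*, listed as Ppap2c (1.04, SE 0.16, adjusted p = 5.69e-05). *Cds1*, which activates phosphatidate for phosphatidylinositol synthesis, was at or below 1.31 CPM in both groups and fell by 2.35 (SE 0.77, adjusted p = 0.0296).

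Of these 6 genes that rose, 4 were higher again in CD11b+ AMs, as a description. *Chpt1* had 715 to 838 CPM, *G0s2* 292 to 415 CPM, *Acsl3* 30.5 to 44.3 CPM and *Aqp9* 92.6 to 124 CPM, each range above that in CD11b- AMs. Ppap2b, with 30.4 to 49.6 CPM, and Ppap2c, with 21.7 to 31.7 CPM, overlapped with CD11b- AMs. In CD11b+ AMs 9 of the 49 genes met the rule upward and 2 downward against CRE- AMs, or 22.4% beside 15.3% of all genes, the latter 2 being *Mgll*, a monoglyceride lipase, and the transcription factor *Cebpa*. *Chpt1*, *G0s2*, *Acsl3* and *Aqp9* therefore had the same order over the AM groups as *Dgat2*, and the reverse of that of *Gpd1*. No lipid was measured in these samples.

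In KCs 52 genes of the lists were tested. None was called in Tim4+ KCs, beside 2.31% of all genes. At an adjusted p under 0.05 without the fold, edgeR gave 6 of the 52, beside 761 of all 12500 genes tested. In Tim4- KCs 2 were higher and 3 lower, or 9.62% beside 8.82% of all genes, a share near the background. Glycerol kinase, listed as Gyk, which makes glycerol 3-phosphate directly from glycerol, rose from 7.40 to 12.1 CPM in CRE- KCs to 22.3 to 50.4 CPM in Tim4- KCs (log2 fold change 1.78, SE 0.19, adjusted p = 9.61e-07 from edgeR). It had 13.2 to 24.7 CPM in Tim4+ KCs. *Pparg*, a transcription factor of lipid storage, was at 10.02 to 28.04 CPM in CRE- KCs and 33.7 to 60.7 CPM in Tim4- KCs (1.17, SE 0.22, adjusted p = 0.000441). The genes that fell were Ppap2b (-1.54, SE 0.22, adjusted p = 3.52e-05), *Mgll* (-1.44, SE 0.30, adjusted p = 0.00145) and Ppap2a (-1.22, SE 0.25, adjusted p = 0.00118 from edgeR), the same 3 that were lower in Tim4- than in Tim4+ KCs. Liver endothelial markers moved with them: the summed level of 6 such genes was 609 to 1785 CPM in CRE- KCs, 1020 to 3004 CPM in Tim4+ KCs and 327 to 481 CPM in Tim4- KCs, with none of the 6 at 0. Their part in these 3 changes was not tested.

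**Figure D4:**
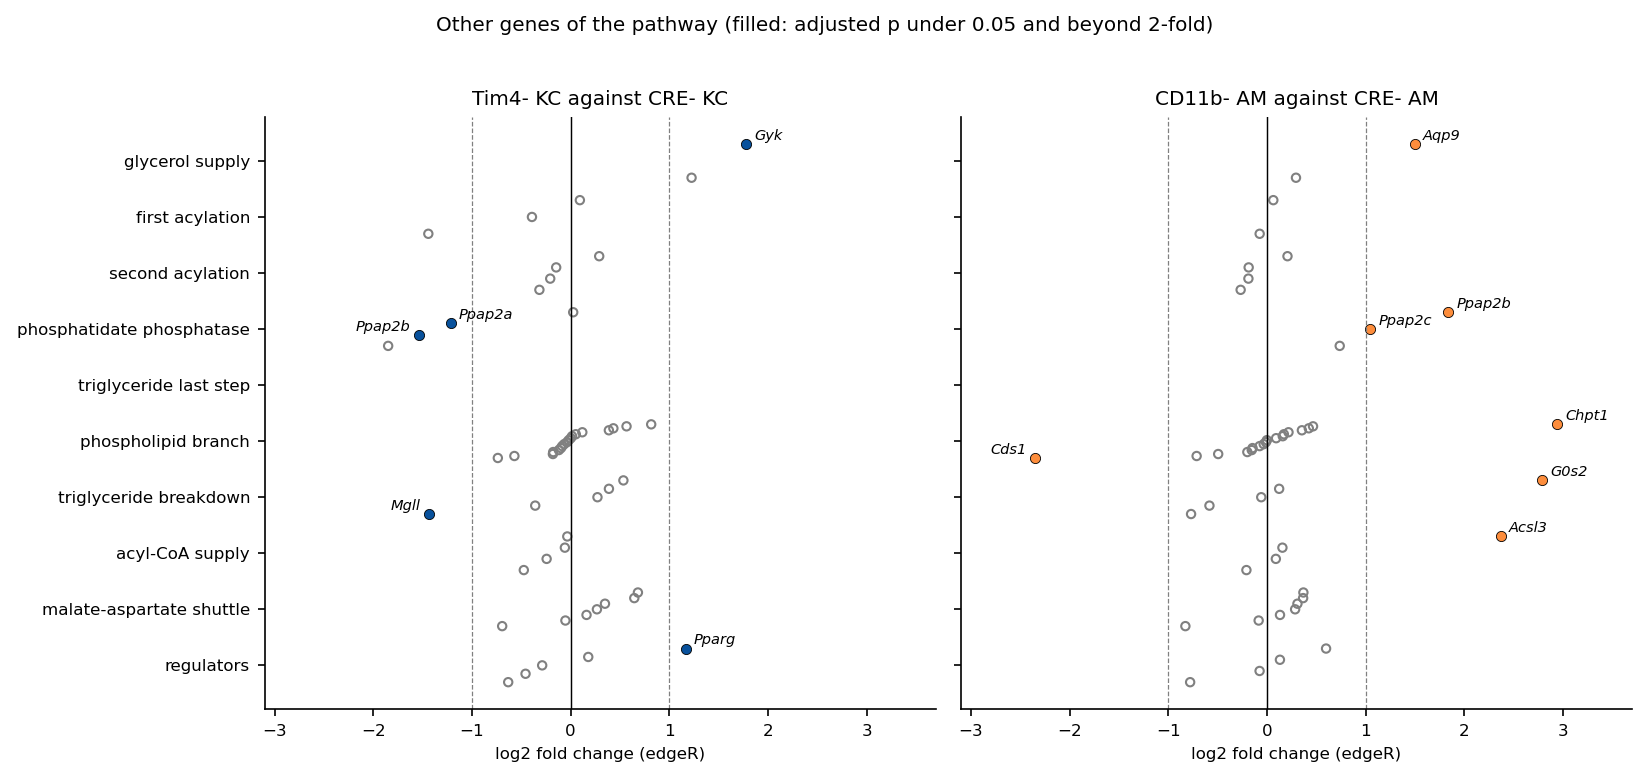
Log2 fold change (horizontal axis, edgeR) of the other pathway genes, 1 row per list, in Tim4- KCs against CRE- KCs (left) and CD11b- AMs against CRE- AMs (right); filled and named points passed the test with a log2 fold change beyond 1 or -1, and open points did not. The named genes of the 2 panels overlap only in Ppap2b, which was lower in Tim4- KCs (-1.54) and higher in CD11b- AMs (1.84).

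The genes with the profile most like that of *Gpd1* were sought by Pearson's r of log2 CPM over the 33 samples, among the 6170 genes whose highest group mean reached 5 on that scale. Among the first 5 were *Tlr8* (r = 0.86), *Fmnl3* (0.84), *Ppp1r3b* (0.84) and *Abca3* (0.83). They encode a receptor for single-stranded RNA, a formin, a regulatory subunit that directs a phosphatase to glycogen and a lipid transporter. These 4 had their highest mean in CRE- AMs and their lowest in CD11b+ AMs. *Tlr8* had 120 to 148 CPM in CRE- AMs, 93.2 to 136 CPM in CD11b- AMs and 36.9 to 50.5 CPM in CD11b+ AMs, and 63.7 to 112 CPM in KCs, so CD11b+ AMs lay below every other sample, and CD11b- AMs overlapped with CRE- AMs and with KCs. The samples fall into 6 groups of 2 tissues, so these values describe the group pattern more than the spread within groups. With Spearman's rho *Ppp1r3b* stayed among the first 5 and the other 3 did not, and within the 15 AM samples or the 18 KC samples alone none of these 4 was among the first 5 by Pearson's r. In the AM samples alone the first was *Ear1*, an eosinophil-associated ribonuclease (r = 0.99), and in the KC samples alone *Gstm1*, a glutathione transferase (r = 0.77). After *Gstm1* in KCs came *Scp2* (0.77), *Fam172a* (0.76), *Saraf* (0.76) and *Adh1* (0.73). The relation of these genes to the hepatocyte sum was not tested.

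ZEB2 belongs to a family of zinc-finger repressors that bind E-boxes of the form CACCTG, which reads CAGGTG on the other strand. RefSeq promoters of 300 bases (GRCm38.p6, from 250 bases before to 50 after a start site) were found for 7 of the 10 genes, with 11 promoters in all; *Gpd1*, *Dgat1* and *Dgat2* had none. Either form of the motif occurred in 2 of these 11, those of *Agpat3* and 1 of *Gpd2*, and in 20.2% of the 32851 promoters in the table. *Agpat3* was the one gene with a match upstream of its start, 125 bases before it, besides a second 29 bases after it; in *Gpd2* the match was 33 bases after. Such a match is a description of the sequence, and no binding was measured in these samples.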

How the data were processed

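Sequencing reads had been trimmed with Trimmomatic 0.35 (quality under 20 removed, reads under 35 bases discarded), checked with FastQC 0.11.4 and mapped to mm10 with TopHat2 2.1.0 by the authors, who counted them with HTSeq-count and deposited raw counts per gene symbol, without normalization. SAMtools 0.1.18 is also named in the submitters' processing notes. The gene annotation and strand setting are not given in the sources used here. The 5 tally rows per file were left out; 4.52% to 8.90% of reads had no feature.

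The 10 genes, the pathway lists and the marker lists were chosen with earlier results of these data known. Tests on the counts used edgeR 4.0.16 under R 4.3.3 (TMM factors, its filter on low counts, quasi-likelihood test) in 4 fits: the 18 KC samples, the 15 AM samples, the 11 CRE- samples, and 28 samples without CD11b+ AMs for the interaction. SE was approximated as the absolute log2 fold change divided by the square root of F. All 10 genes passed the filter in each fit. The labels do not say that replicates came from separate animals, so p-values measure only the spread between these samples, which may be technical. No pair of replicates agreed within counting noise (chi-square per gene of at least 12.8 in every pair). Exonic lengths came from GENCODE M21 (GRCm38, the build of mm10). All 10 genes are named throughout, with up to 5 rises and 5 falls of the lists per comparison (a sixth rise in CD11b- AMs was added after its value was seen). Sequences and ratios used Python 3.11.15 with Biopython 1.88; the scripts were tested on simulated data. Alternatives were limma-voom (limma 3.58.1), DESeq2 1.42.0, RLE factors, no filter, a minimum of 10 counts per sample, calls by adjusted p alone, the groups compared alone, all 33 samples, *Ddx3y* as a covariate in KCs, the replicate number as a block, each sample left out, and, chosen after seeing the data, edgeR's robust fit. Log2 CPM used a prior count of 0.5. Intervals of counts cover counting error only. A result for 1 of the genes most like *Gpd1* is not reported here.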

Additional observations from a re-analysis of the deposited data

Results flagged for a closer look

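Of the 60 combinations of gene and group, 3 had a sample far from the rest by Dixon's test at 95%, which chance alone gives in about 1 of 20. *Gpd1* in CD11b+ AM replicate 2 had 0.277 CPM, where the next sample had 0.0472 CPM; these are 6 counts and 1 count. *Agpat3* in Tim4- KC replicate 1 had 147 CPM, where the next lowest of the 6 had 205 CPM. *Dgat2* in CRE- KC replicate 3 had 11.4 CPM, where the next highest had 3.998 CPM, and the same library had the highest summed hepatocyte markers, 473 CPM; the part of these in its *Dgat2* level was not tested.

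The change in both CRE+ KC groups less the change in CD11b- AMs, tested as an interaction term in edgeR, had an adjusted p under 0.05 for 4 genes. The log2 differences were 3.03 for *Gpd1* (adjusted p = 0.00121), -2.21 for *Dgat2* (adjusted p = 0.000951), -0.85 for *Gpd2* (adjusted p = 0.000463) and 0.59 for *Agpat3* (adjusted p = 0.00306). At that threshold 1544 of all 13150 genes tested passed. *Gpd1* was picked with the same CRE- AM samples, so its p-value is not independent of that choice.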

How the results depend on the processing

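The calls of single genes among the 10 were the same under every alternative that tested them at the same thresholds. Without a fold cut-off the number of the 10 genes called was 1 in Tim4+ KCs, 2 in Tim4- KCs, 5 in CD11b- AMs and 4 for the interaction. In CD11b+ AMs it was 5 against CRE- AMs and 6 against CD11b- AMs. The members were chosen on these samples, so nothing is read from either count. Over all genes it was 761, 3169 and 1433 (Tim4- against Tim4+ KCs) of 12500 in KCs. It was 2972, 5004 and 4215 of 11573 in AMs, 7680 of 12145 (CRE- KCs against CRE- AMs) and 1544 of 13150 for the interaction. With at least 10 counts in every sample *Gpd1* was not tested in the AM samples, which left 1 gene of the 10 in each AM comparison, and over all genes 187, 688, 451, 394, 1114, 672, 2228 and 382. Values near 0 changed sign: *Dgat2* in Tim4- against Tim4+ KCs was -0.10 with limma-voom and -0.0135 with the replicate block, *Dgat1* in the interaction was -0.0108 with limma-voom, -2.4e-05 with RLE factors and -0.0031 with at least 10 counts, and *Gpd1l* in Tim4+ KCs was -0.0024 without a filter. Edges of the range on leaving out each sample are given for results that changed sign. Against CRE- KCs they were, in Tim4+ KCs, -0.0488 to 0.0469 for *Gpd1l*, -0.10 to 0.29 for *Agpat4* and -0.16 to 0.083 for *Lpin1*, and in Tim4- KCs -0.42 to 0.0112 for *Gpd1*, -0.0128 to 0.12 for *Dgat1* and -0.74 to 0.0576 for *Dgat2*. Between the CRE+ KC groups they were -0.0254 to 0.49 for *Agpat4* and -0.0681 to 0.27 for *Dgat2*, in CD11b- AMs -0.21 to 0.0081 for *Gpam*, and in the interaction -0.0755 to 0.0746 for *Dgat1*. The cause of these sign changes was not tested. The robust fit changed no call of the 10. Replicate numbers were taken to pair samples only where r was over 0.1 in every pair, which no comparison met. All pairs were above 0 between Tim4- and Tim4+ KCs (r from 0.0976 to 0.241, 12 of 12 samples best with their own number), CD11b+ and CD11b- AMs (0.062 to 0.123, 10 of 10) and CD11b+ and CRE- AMs (0.0365 to 0.0891, 9 of 10); in the others the lowest pair was between -0.0879 and -0.00718. In KCs the number also goes with *Ddx3y*, but the labels do not say that it marks an animal. The replicate block changed no call of the 10; *Lpin1*, lower in Tim4- than in Tim4+ KCs in 6 of 6 same-numbered pairs, was at -0.60 with it (adjusted p = 0.0673 from edgeR). *Gpd1* in CD11b+ AMs rests on 7 counts, so its fold is bounded by depth.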
